A study of Rana omeimontis with 6 samples.

Results

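Liver transcripts for the coat proteins of lipid droplets were followed in tadpoles of the frog Rana omeimontis before and after the stage at which the liver accumulates fat. The transcripts were chosen by the text of the protein description deposited with each transcript cluster, here called a row. A row was taken when the first entry of its description named a perilipin, adipose differentiation-related protein (an older name of perilipin-2, spelled "dipose differentiation-related protein" in the deposited descriptions), a fat storage-inducing transmembrane protein, a cell death activator CIDE, seipin or 17-beta-hydroxysteroid dehydrogenase 13. This gave 14 of 121726 rows, from 5 proteins: 7 rows of perilipin-2, 2 of perilipin-3, 2 of CIDE-B, 2 of CIDE-3 and 1 of fat storage-inducing transmembrane protein 2 (FITM2). The phrases for seipin and for 17-beta-hydroxysteroid dehydrogenase 13 matched 0 rows. The group itself was chosen by its values in the contrast of the stages, which were known when it was put together. The differences of its members between the stages are therefore given as a description. Member rows were also part of the fit over all rows, and their calls there are not read as support.

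The series holds 6 poly-A selected liver libraries of tadpoles collected in a nature reserve in Sichuan, 3 labelled as before and 3 as after ontogenetic fat accumulation, and the labels name no treatment or genetic change in either group. The labels give neither age nor the number of animals behind a library. The p-values printed here set the stage difference against the spread between these libraries, and that spread may therefore be technical. Values are FPKM (fragments scaled by transcript length and by the library's mapped fragments), a level per length. Summed FPKM lay between 1358660 and 1442120 per library. The read depth is unknown, which leaves values under about 1 FPKM the least precise.

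Fat is stored in cells as lipid droplets, a core of triacylglycerol and sterol esters under a single layer of phospholipid that carries proteins. Perilipins coat this layer and limit the access of lipases. In mammals perilipin-2 is the main perilipin of liver cells and is broken down when it is not bound to a droplet, while perilipin-3 is made in most tissues and moves between the cytosol and droplets. FITM2, of the endoplasmic reticulum, takes part in the budding of droplets, seipin marks the sites where they form, and the CIDE proteins act in their fusion and growth. These roles are known from mammals. The deposited descriptions name proteins of other species, mostly the clawed frog Xenopus, and no sequence of the tadpole transcripts was used here.

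Of 6 hepatocyte markers FGB matched no row, SERPINA1 was listed at 0 in all 3 libraries after and in before replicate 1, with 1.80 and 2.79 FPKM in the other libraries before, and the other 4 were present in all 6 libraries. Summed over the 5 of 6 hepatocyte markers that matched a row, the level was 2760 to 4870 FPKM before and 6363 to 7345 after. Transthyretin lay at 41.9 to 151 FPKM before and 1107 to 1388 after, serum albumin at 15.0 to 69.8 and 353 to 539, and both stood higher after in every library. Serotransferrin (582 to 1292 before, 601 to 810 after) and apolipoprotein A-I were present at both stages, the former with overlap. Markers of pancreatic acinar cells, such as trypsin, took 20.1% to 31.5% of the summed FPKM before and 24.4% to 30.7% after, and were thus abundant at both stages. Of 6 adipocyte markers ADIPOQ, LEP and PLIN1 matched no row. The other adipocyte markers were FABP4, LPL and CIDEC, the gene of CIDE-3 and itself a member, and together they summed to 16.5 to 22.6 FPKM before and 21.8 to 36.1 after. Stellate cell markers summed to 38.7 to 87.3 FPKM before and 44.9 to 62.1 after, the 2 of 6 macrophage markers that matched a row to 23.1 to 61.7 and 35.7 to 46.4, and erythrocyte markers to 7856 to 9962 and 11864 to 12402. In such bulk samples fewer cells of a type and less RNA per cell cannot be told apart. Nor can a droplet transcript be assigned to a cell type, be it hepatocytes or pancreatic acinar cells.

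Perilipin-2 was the member with the largest stage difference in FPKM. Summed over its 7 rows it stood at 20.0, 24.3 and 17.2 FPKM in the 3 libraries before fat accumulation and at 312, 784 and 860 FPKM after. Every library after lay above every library before, and the first replicate after was the lowest of its stage. The means were 20.5 ± 3.57 before and 652 ± 297 after (SD, n = 3 each), a ratio of 31.8 and a difference of 4.81 ± 0.486 (SE) on the log2(FPKM + 1) scale. Adding 1 makes the change of low values look smaller than it is. Rows of one protein can be pieces or variants of the same transcript and can share reads, so a sum over rows is an index of the protein's transcripts and not a count of molecules.

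4 of the 7 rows carried nearly all of the perilipin-2 signal. Row A (Cluster-8914.32574, described as dipose differentiation-related protein of Xenopus tropicalis) stood at 7.68, 4.36 and 6.02 FPKM before and 243, 436 and 281 after. Among the 121726 rows it ranked between 8913 and 13156 before and between 282 and 408 after. Row B (Cluster-8914.32807), with the same description, stood at 2.61, 8.31 and 2.24 FPKM before and 15.5, 169 and 405 after. Its libraries after fat accumulation spanned 26.1-fold, against 1.80-fold for row A. Row C (Cluster-8914.31325, perilipin-2 isoform X1 of Xenopus tropicalis) stood at 5.22, 8.88 and 6.23 FPKM before and 39.5, 100.3 and 109 after. Row D (Cluster-8914.33805, perilipin 2 of Xenopus laevis) stood at 4.01, 0.820 and 0.970 FPKM before and 13.9, 78.4 and 63.8 after. In all 4 rows the stages did not overlap and the first replicate after was the lowest of its stage. Their differences on the log2(FPKM + 1) scale were 5.50 ± 0.323 for row A, 4.45 ± 1.46 for row B, 3.33 ± 0.503 for row C and 4.02 ± 0.895 for row D (SE, n = 3 each).

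**Figure D1:**
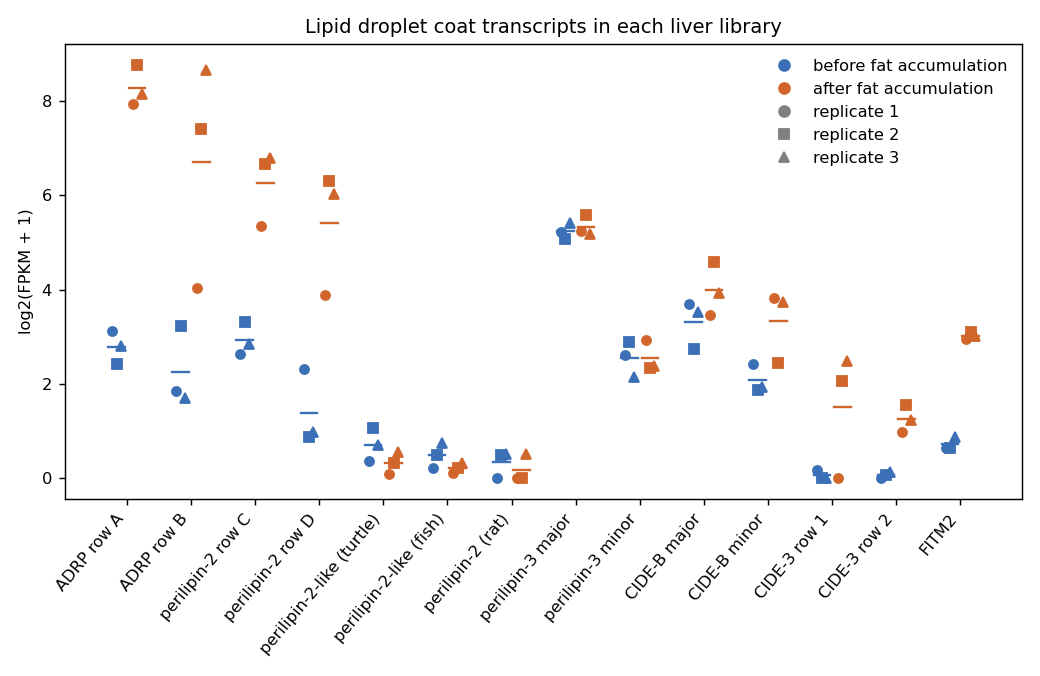
Level of each of the 14 member rows in each library, as log2(FPKM + 1). Points are libraries, their shape gives the replicate number, and bars are the mean of 3 libraries. ADRP stands for adipose differentiation-related protein, and turtle, fish and rat for the species of the description. Rows A to D of perilipin-2 and the FITM2 row show no overlap between the stages, while the rows of perilipin-3 do overlap.

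The balance of rows A and B differed between libraries. After fat accumulation row A made up 77.9%, 55.6% and 32.7% of the perilipin-2 FPKM in replicates 1, 2 and 3, and row B made up 4.96%, 21.5% and 47.1%. Their joint share was 82.8%, 77.2% and 79.7%, a far narrower range than that of either row. Before fat accumulation the joint share was 51.5%, 52.2% and 48.1%, with row B highest in replicate 2 at 34.2%. Row C held 12.7%, 12.8% and 12.7% of the perilipin-2 FPKM after, and 26.1%, 36.6% and 36.2% before. This comparison of shares was chosen after the values were seen. Differences in sequence between the rows were not analysed here, and what sets the balance of rows A and B was not tested.

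**Figure D2:**
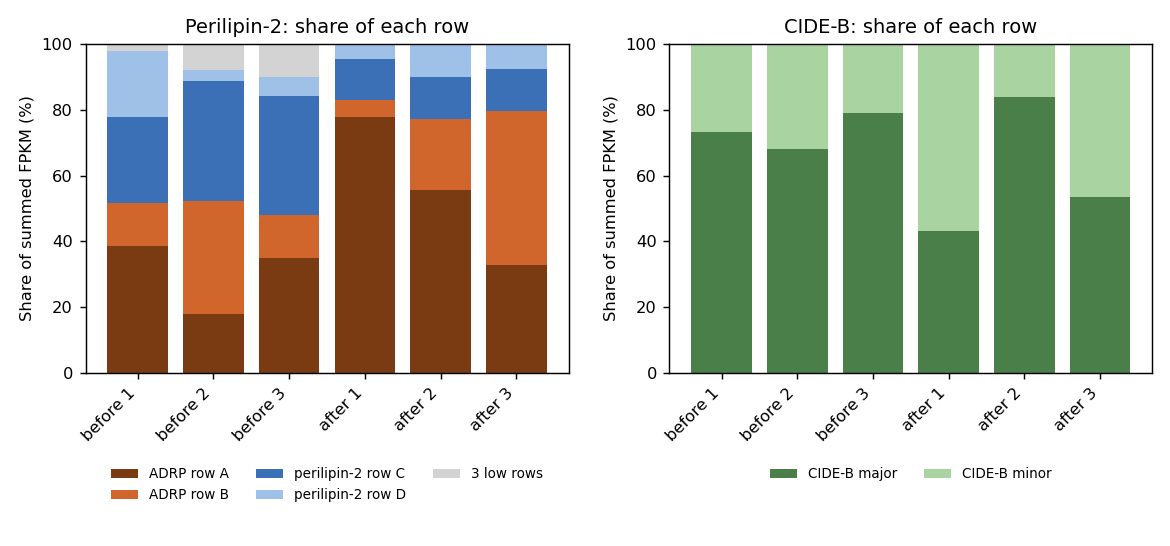
Share of each row in the summed FPKM of its protein (%), per library, for perilipin-2 and CIDE-B. After fat accumulation ADRP rows A and B trade places, from 77.9% and 4.96% in replicate 1 to 32.7% and 47.1% in replicate 3, while row C stays between 12.7% and 12.8%.

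The other 3 perilipin-2 rows were scarce and were described from species far from frogs. The turtle-described row (Cluster-39247.0, Chrysemys picta bellii) stood at 0.290, 1.10 and 0.620 FPKM before and 0.0600, 0.240 and 0.460 after. The fish-described row (Cluster-49087.0, Larimichthys crocea) stood at 0.160 to 0.680 FPKM before and 0.0800 to 0.240 after. The rat-described row (Cluster-21826.0) was listed at 0 in before replicate 1 and in after replicates 1 and 2, with at most 0.430 FPKM elsewhere. All 3 had a higher mean before than after, against the direction of rows A to D, but the stages overlapped in each. Together with both CIDE-3 rows they make the 5 member rows below the level set for testing, a minimum of 1 FPKM reached by 3 or more libraries.

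Perilipin-3, the exchangeable perilipin, did not separate the stages. Its major row (Cluster-8914.35494) stood at 36.1, 32.4 and 41.8 FPKM before and 36.7, 47.0 and 35.3 after, and its minor row (Cluster-8914.35493) at 5.13, 6.42 and 3.39 before and 6.60, 4.03 and 4.18 after. Summed, the level was 41.8 ± 3.22 FPKM before and 44.6 ± 5.86 after (SD, n = 3 each), with a difference of 0.09 ± 0.123 (SE) on the log2(FPKM + 1) scale. The major row ranked between 1959 and 2003 before and between 1784 and 2173 after, a position that hardly moved.

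The order of these perilipins was opposite in the stages. Before fat accumulation perilipin-3 was the more abundant, and the ratio of perilipin-2 to perilipin-3 within a library was 0.484, 0.625 and 0.380. After fat accumulation the ratio was 7.20, 15.4 and 21.8. With the leading row of each alone, row A against the major perilipin-3 row, it was 0.134 to 0.213 before and 6.61 to 9.28 after. These ratios are taken within a library and do not depend on how the libraries are scaled to each other. Of the summed FPKM of all 14 rows, perilipin-2 took 27.2% ± 5.81 before and 87.3% ± 5.76 after, and perilipin-3 took 55.2% ± 3.37 and 7.09% ± 3.67 (SD, n = 3 each).

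FITM2, which acts where droplets bud, had the narrowest spread of the members after fat accumulation. Its row (Cluster-35481.0, fat storage-inducing transmembrane protein 2 isoform X1) stood at 0.560, 0.550 and 0.840 FPKM before and 6.72, 7.55 and 7.03 after. The stages were far apart, and the libraries after spanned only 1.12-fold. Those before spanned 1.53-fold and all lay under 1 FPKM, where adding 1 narrows the spread on the log2 scale. The ratio of the means was 10.9, and the difference was 2.30 ± 0.0916 (SE) on the log2(FPKM + 1) scale, or 3.28 with a pseudocount of 0.1, since the level before was low. The SD of its log2 values after was 0.0743, smaller than in all but 4.80% of 10595 tested rows within 2-fold of its level. Row B of perilipin-2 lay at the other end, with an SD of 2.39, larger than in 99.8% of 548 rows of like level.

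CIDE-B, known from mouse liver for a role in loading lipid onto very low density lipoprotein, was higher after fat accumulation as a sum. Its 2 rows summed to 16.3, 8.32 and 13.2 FPKM before and 23.3, 27.5 and 26.5 after, with no overlap. The difference was 1.02 ± 0.272 (SE) on the log2(FPKM + 1) scale. Its major row (Cluster-8914.41672) overlapped between the stages, with 11.9, 5.67 and 10.4 FPKM before and 10.1, 23.1 and 14.2 after, and alone gave a difference of 0.68. Its minor row (Cluster-8914.41671) stood at 4.36, 2.65 and 2.79 before and 13.2, 4.44 and 12.4 after. After fat accumulation the major row spanned 2.30-fold and the minor row 2.97-fold, while the sum spanned only 1.18-fold. The minor row then held 56.7%, 16.1% and 46.6% of the CIDE-B FPKM.

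CIDE-3, the product of CIDEC and in mammals a protein of fat cells and of fatty liver, was nearly silent before. Its rows summed to 0.130, 0.05 and 0.1 FPKM before and 0.970, 5.12 and 5.94 after. The stages did not overlap, and the first replicate after was the lowest of its stage. One row (Cluster-8914.15132) was listed at 0 in that replicate and in before replicates 2 and 3, at 0.130 in before replicate 1, and at 3.17 and 4.59 in after replicates 2 and 3. The other (Cluster-8914.14380) stood at 0, 0.05 and 0.1 before and 0.970, 1.95 and 1.35 after. The difference of the sum was 2.0 ± 0.579 (SE) on the log2(FPKM + 1) scale and 4.09 with a pseudocount of 0.1. For comparison, 3 rows described as hydroxysteroid (17-beta) dehydrogenase 13, the droplet enzyme that the selection looked for under another word order, summed to 0.240, 0.520 and 0.880 FPKM before and 0.620, 0.960 and 1.47 after, with overlap.

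In the fit over all 40548 rows above the level for testing (limma, Benjamini-Hochberg adjusted p under 0.05), 4 of the 9 members that could be tested were past the threshold and higher after fat accumulation, rows A, C and D of perilipin-2 and the FITM2 row, and 0 were lower. Over all rows 4.64% were called higher and 4.0% lower. The FITM2 row reached the level for testing only through the libraries after, so it could only be called higher. Row D also needed them, as before replicate 1 was its only library before at 1 FPKM or more. In 6 of these 9 members every library after stood above every library before, against 15.7% of all rows tested. The same held in 1 of the 5 members below that level, for which no share over like rows was computed. Row B missed the threshold with its 26.1-fold spread after, and 5 member rows passed without after replicate 1, against 3 without any other single library. As this contrast chose the members, nothing is read from these counts and calls.

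Hepatocyte markers also differed between the stages, and the members were set against them within each library. Per 1000 FPKM of summed hepatocyte markers, perilipin-2 stood at 5.67, 4.99 and 6.23 FPKM before and 42.5, 114 and 135 after. FITM2 stood at 0.113 to 0.304 before and 0.915 to 1.10 after. CIDE-B overlapped on this measure, with 1.71 to 4.79 before and 3.17 to 4.17 after, and perilipin-3 stood at 7.98 to 16.4 before and 5.90 to 7.45 after. This sum is mostly apolipoprotein A-I, and single markers, looked at after the values were seen, gave different pictures. Per 1000 FPKM of albumin, perilipin-2 stood at 348 to 1148 before and 578 to 2436 after, and FITM2 at 7.88 to 56.1 and 12.5 to 19.9, both with overlap. Per 1000 FPKM of transthyretin, perilipin-2 stood at 143 to 411 before and 282 to 672 after, and FITM2 at 3.64 to 20.1 and 5.44 to 6.07, again with overlap. Relative to apolipoprotein A-I and to serotransferrin each, perilipin-2 and FITM2 were higher in every library after than in any before. CIDE-B and perilipin-3 were lower after in every library relative to albumin and to transthyretin, and both overlapped relative to apolipoprotein A-I. Per 1000 FPKM of serotransferrin CIDE-B went the other way, with 10.2 to 21.4 before and 28.7 to 45.8 after. Perilipin-3 overlapped on that measure. The part of hepatocyte content in the stage differences was not tested.

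Libraries after fat accumulation also differed among themselves. The first replicate was the lowest of its stage for perilipin-2, CIDE-3, CIDE-B and FITM2 and, in the lists below, for G0S2 and PPARG among others. In the same lists this replicate was the highest of its stage for other genes called higher, among them MOGAT2, LSS, METTL7A, SQLE, ACAA1 and CYP4B1. It was the lowest of its stage in 10 of the 14 member rows, without counting ties. Among all rows tested it was the lowest of its stage in 32.8%, and among the 1882 rows called higher in 44.1%. Without it the perilipin-2 difference was 5.27 and the CIDE-3 difference 2.58 on the log2(FPKM + 1) scale, against 4.81 and 2.0 with it. For CIDE-B, perilipin-3 and FITM2 the libraries after spanned only 1.18-fold, 1.29-fold and 1.12-fold.

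**Figure D3:**
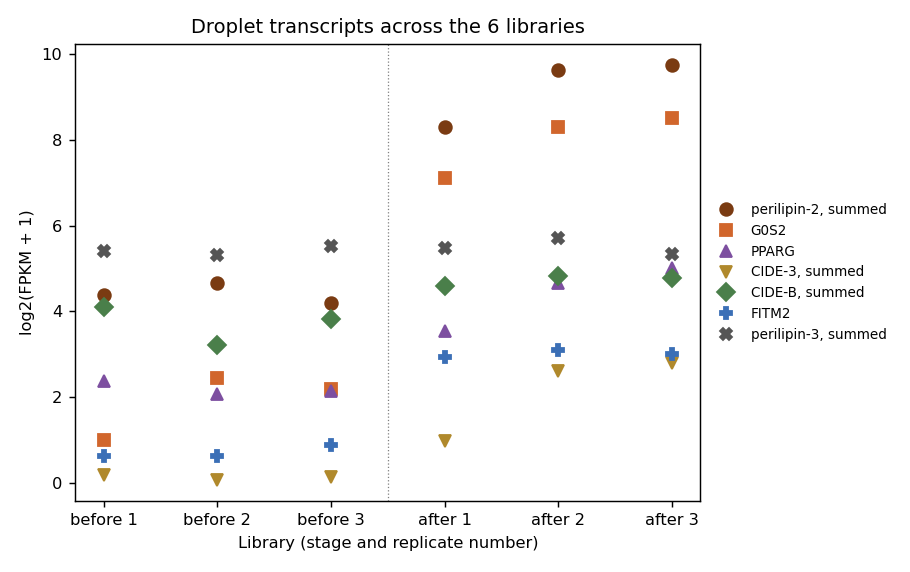
Levels of droplet transcripts in the 6 libraries, as log2(FPKM + 1), with one marker per library and transcript. Within the stage after, perilipin-2, G0S2, PPARG and CIDE-3 are lowest in the first replicate, where perilipin-2 sums to 312 FPKM. FITM2 and CIDE-B are also lowest there within that stage, but vary little.

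Other genes of droplet metabolism were taken from 5 lists of 81 genes, of which 69 matched a row and 51 could be tested, each by its most abundant row. The median difference over all rows tested was -0.08 on the log2(FPKM + 1) scale. Each list's median was above this value. That is not a like comparison, since list genes are each the most abundant of the described rows that matched. The lists were also chosen with earlier results of these data known, so their medians and counts are given as a description. All differences below are on that scale with the SE of limma, and all p-values are adjusted over the 40548 rows.

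Enzymes that make triacylglycerol and sterol esters gave 2 increases and 0 decreases among 12 tested genes, with a median difference of 0.41. MOGAT2, which acylates monoacylglycerol, stood at 0.950, 0.470 and 0.270 FPKM before and 5.77, 4.42 and 4.12 after, and rose by 1.90 ± 0.276 (adjusted p = 0.0145). It reached the level for testing only through the libraries after, so it could only be called higher. GPAT4, of the first step of glycerolipid synthesis, stood at 6.24, 5.57 and 8.69 FPKM before and 20.7, 23.6 and 21.5 after, and rose by 1.57 ± 0.220 (adjusted p = 0.0132). DGAT1 and DGAT2, the enzymes of the last step, did not pass. DGAT1 stood at 8.88, 2.58 and 4.4 FPKM before and 10.4, 10.1 and 8.77 after (adjusted p = 0.191), and DGAT2 at 9.43, 1.44 and 1.58 before and 8.15, 3.96 and 5.22 after (adjusted p = 0.513). With the rows of each gene summed, DGAT1 and DGAT2 did not pass either (adjusted p = 0.104 and 0.351). MOGAT2 and GPAT4 both lost the threshold without after replicate 2 (adjusted p = 0.0576 and 0.0610) and without after replicate 3 (0.0558 and 0.0592), which left 0 increases, and GPAT4 also without before replicate 1 (0.0551), which left 1.

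Among 5 tested genes of droplet lipolysis 2 rose and 0 fell, with a median of 0.47. G0S2, an inhibitor of adipose triglyceride lipase in mammals, stood at 1.02, 4.42 and 3.58 FPKM before and 138, 314 and 363 after, and rose by 6.09 ± 0.499 (adjusted p = 0.00363). The stages were far apart, and the increase passed with each library left out in turn. CES1, a carboxylesterase, rose by 1.09 ± 0.229 (adjusted p = 0.0367), but missed the threshold in all 6 fits with 1 library left out, where adjusted p went from 0.0673 without after replicate 1 to 0.120 without after replicate 3, leaving 1 increase each time. PNPLA2, that lipase itself, stood at 4.11, 1.46 and 4.63 FPKM before and 0.780, 0.530 and 0.670 after by its leading row. That row reached the level for testing only through the libraries before, so it could only be called lower. The stages did not overlap, but the difference of -1.32 ± 0.368 did not pass (adjusted p = 0.0743). Leaving out before replicate 2 brought PNPLA2 past the threshold (adjusted p = 0.0415), as did summing its 3 rows, at -1.69 ± 0.279 (adjusted p = 0.0196). ABHD5, the activator of this lipase, lay below the level for testing, at 0, 0 and 0.240 FPKM before and 0.870, 1.70 and 1.65 after by its leading row. With its 3 rows summed ABHD5 stood at 2.27, 1.27 and 1.91 before and 1.40, 2.56 and 2.60 after, and the apparent separation was gone (adjusted p = 0.756).

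Other proteins known from droplet surfaces gave 5 increases and 0 decreases among 13 tested, with a median of 0.78. LSS, lanosterol synthase, stood at 7.54, 6.03 and 6.33 FPKM before and 30.2, 24.0 and 29.5 after, and rose by 1.92 ± 0.198 (adjusted p = 0.00621). PCYT1A, the rate-setting enzyme of phosphatidylcholine synthesis, which in animal cells binds growing droplets, stood at 7.21, 6.33 and 8.38 FPKM before and 20.9, 23.2 and 24.8 after (1.53 ± 0.197, adjusted p = 0.0106). METTL7A, SQLE (squalene monooxygenase) and HSD17B11, a relative of the dehydrogenase named above, rose by 1.91, 1.86 and 1.24 (adjusted p = 0.0160, 0.0213 and 0.0339). SQLE stood at 0.190, 0.180 and 0.330 FPKM before and 5.29, 3.50 and 2.15 after by its leading row. That row reached the level for testing only through the libraries after, so it could only be called higher. With both of its rows summed METTL7A rose by only 1.08 (adjusted p = 0.0364). LSS alone of these passed with each library left out. The count of increases was 4, 1 and 2 with after replicates 1, 2 and 3 left out in turn, and 2, 3 and 2 with before replicates 1, 2 and 3 left out. ACSL3, an acyl-CoA synthetase of nascent droplets, lay below the level for testing, with 0.150 to 0.350 FPKM before and 0.270 to 0.550 after.

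Of 10 tested nuclear receptors and transcription factors 2 rose and 1 fell, with a median of 0.33. PPARG, which drives fat storage genes including those of CIDE-3 and perilipins in mammals, stood at 4.22, 3.22 and 3.40 FPKM before and 10.7, 24.3 and 31.3 after, and rose by 2.21 ± 0.392 (adjusted p = 0.0235). All 3 libraries after stood above those before, and the first replicate after was the lowest. That order was shared with perilipin-2 and with 44.1% of the 1882 rows called higher, and a link of PPARG to perilipin-2 was not tested. PPARA, the receptor of fatty acid oxidation genes, rose by 1.66 ± 0.299 (adjusted p = 0.0244) by its leading row. With its 3 rows summed PPARA rose by only 1.21 ± 0.238 (adjusted p = 0.0302). MLXIPL, a carbohydrate-sensing factor of lipid synthesis genes, stood at 7.39, 5.60 and 5.96 FPKM before and 1.99, 1.32 and 2.0 after, and fell by 1.40 on this scale (adjusted p = 0.0213). By its leading row each of these genes kept its call in 1 of 6 fits with a library left out. These were PPARG and MLXIPL without after replicate 1 and PPARA without before replicate 3. Adjusted p went up to 0.0840 for PPARG without after replicate 2, and to 0.0853 for PPARA and 0.0819 for MLXIPL without before replicate 1.

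Genes known as PPAR targets in mammals gave 8 increases and 0 decreases among 11 tested, with a median of 1.70. The 3 that did not pass were EHHADH, CPT1B and PDK4, with differences of 0.61, 0.13 and -0.23. The 6 with the smallest p were FABP1, HADHB, VNN1, ACAA1, ACADL and CYP4B1, and all 6 passed with each library left out. FABP1, the fatty acid binding protein of liver, stood at 1960, 1821 and 1348 FPKM before and 10577, 10996 and 10470 after, and rose by 2.66 (adjusted p = 0.00214). HADHB, of mitochondrial oxidation, and ACAA1, a peroxisomal thiolase, rose by 2.08 and 2.10 (adjusted p = 0.00363 and 0.00648). VNN1, a pantetheinase, stood at 59.9, 49.6 and 51.2 FPKM before and 180, 190 and 236 after, and rose by 1.89 ± 0.175 (adjusted p = 0.00481). CYP4B1, a cytochrome P450, stood at 13.03, 16.6 and 10.9 before and 70.0, 50.6 and 50.4 after (2.0 ± 0.233, adjusted p = 0.00837). That call was lost when its 16 rows were summed, at 109, 77.4 and 92.3 FPKM before and 214, 138 and 133 after (0.77 ± 0.240, adjusted p = 0.0960). ACADL, a mitochondrial acyl-CoA dehydrogenase, stood at 30.2, 38.4 and 26.7 before and 101, 112 and 100.3 after (1.70 ± 0.188, adjusted p = 0.00731). In these 6 genes the libraries spanned 1.21-fold to 1.52-fold before and 1.05-fold to 1.39-fold after. The first replicate after was not far below the others of its stage, as it was for perilipin-2. For CYP4B1 and ACAA1 it was the highest, with ACAA1 at 40.0, 32.5 and 31.1 FPKM after. ANGPTL4, a secreted lipase inhibitor that responds to PPARs in mammals, lay below the level for testing by its leading row, at 1.83, 1.16 and 0.460 FPKM before and 0, 0.250 and 0.510 after. Summed over its 4 rows ANGPTL4 stood at 3.69, 2.11 and 2.70 before and 0.340, 0.920 and 1.21 after. Every library after was below every library before, but the difference of -1.08 ± 0.306 did not pass (adjusted p = 0.0770).

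**Figure D4:**
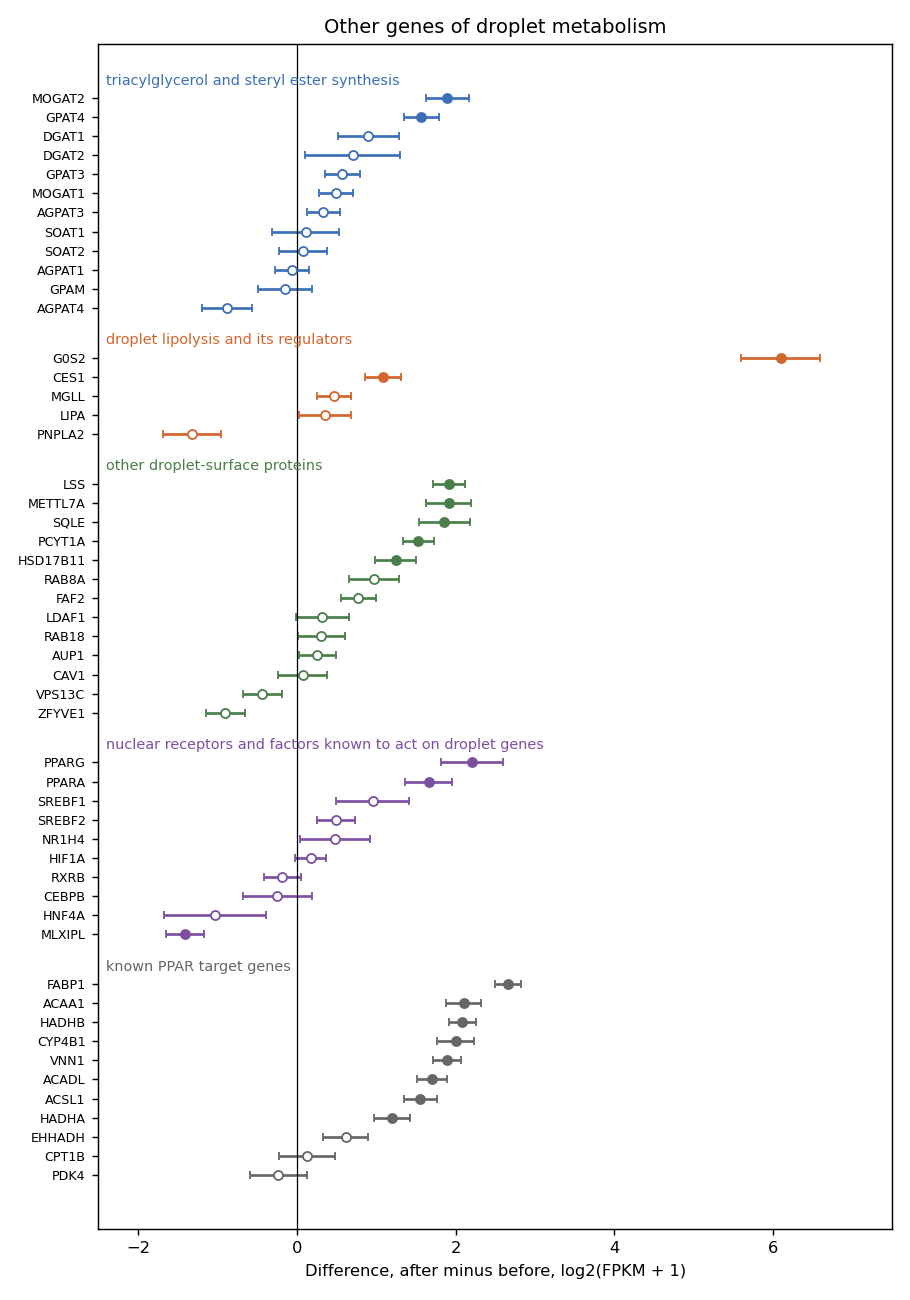
Difference of the stage after from the stage before, as log2(FPKM + 1), for the 51 tested genes of 5 lists, each by its most abundant row. Bars are the SE of limma, and filled points passed an adjusted p of 0.05. G0S2 stands furthest right at 6.09, and MLXIPL is the filled point to the left of 0, at -1.40.

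The rows whose profiles were most like that of summed perilipin-2 were sought among 4157 described rows with a mean of at least 10 FPKM in either stage, by the root-mean-square difference of centred log2(FPKM + 1) values over the 6 libraries. The median over these rows was 2.40. The nearest, at 0.389, was described as a b(0,+)-type amino acid transporter 1-like protein, with 0.970, 2.04 and 0.420 FPKM before and 37.2, 57.0 and 48.4 after. An acyl-CoA desaturase row followed at 0.392, with 1.66, 1.83 and 2.58 FPKM before and 57.1, 145 and 84.8 after. A torsin-3A row at 0.508 was listed at 0, 0.200 and 0 before and stood at 5.38, 20.0 and 30.5 after. A row of long-chain-fatty-acid--CoA ligase 5 (ACSL5) at 0.581 and one of a cytochrome P450 2C20 at 0.593 completed the 5 nearest. In all of them but the desaturase and the transporter the first replicate after stood at under 50% of the next library of its stage. This likeness was measured within the contrast that chose the members and says nothing of a shared function.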

How the data were processed

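Total liver RNA was selected for poly-A, fragmented, primed with random hexamers and sequenced as paired ends on an Illumina instrument, per the labels' protocols. The authors deposited 1 matrix of FPKM values per library with a protein description per transcript cluster. Which assembler, aligner and counter made them is not stated in the labels or the file header. No genome, transcript length or sequence was used. As FPKM are not counts, no count model was fitted.

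Rows reaching 1 FPKM in 3 or more of the 6 libraries were compared between stages on log2(FPKM + 1), using limma 3.58.1 (R 4.3.3), eBayes with trend, two-sided, Benjamini-Hochberg adjusted over all rows. Summaries used Python 3.11.15. Other pseudocounts, filters, scalings, a replicate block, summed rows and fits without 1 library were tried. The fit was tested on simulated data. List genes were matched by protein name, leaving out rows described from mouse, rat or human, and stood for by their most abundant row. 1 listed gene is not reported here and was left out of the list counts.

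The members and lists were chosen with earlier results of these data known. Text names every member, up to 6 genes per list past the threshold by p, 9 further genes whatever their result, and the 5 rows most like summed perilipin-2. The tested PPAR targets that did not pass and genes called lower with their rows summed are named as well.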

Additional observations from a re-analysis of the deposited data

How the results depend on the processing

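Over other pseudocounts, scalings, filters and combinations of rows, the summed perilipin-2 difference kept its sign, at 5.50 with the most abundant row alone. CIDE-B was 0.68 by its most abundant row, which is also the one left by a filter at 5 FPKM. A pseudocount of 0.1 gave 4.09 for CIDE-3 and 3.28 for FITM2, a pseudocount of 0.5 gave 2.73 for FITM2, and quantile normalization gave 2.42. Leaving out 1 library gave 4.54 to 5.27 for perilipin-2, 0.77 to 1.21 for CIDE-B, 1.67 to 2.58 for CIDE-3, 2.26 to 2.38 for FITM2 and -0.01 to 0.17 for perilipin-3. Rescaling without the pancreas markers, chosen after seeing the data, gave 4.85 for perilipin-2. Rows called higher and lower numbered 1882 and 1620, or 634 and 433 with no filter, and 392 to 1184 and 299 to 917 with 1 library left out.

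With no filter 1 lipolysis gene, 0 factors higher and 0 lower, and 3 surface proteins passed. The 5 FPKM filter left 1 increase in lipolysis and 1 in synthesis. Median-of-ratios factors and quantile normalization each gave 1 decrease among surface proteins, and FPKM summed over rows gave 1 there, 1 in lipolysis and 1 in synthesis (ZFYVE1, PNPLA2 and LPIN1). With 1 library left out the increases stayed at 1 for lipolysis and ranged from 6 to 8 for PPAR targets, 0 to 1 for factors, 1 to 4 for surface proteins and 0 to 2 for synthesis, and the decreases from 0 to 1 for lipolysis and for factors.

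Deviations of same-numbered libraries correlated at -0.00489, -0.0387 and -0.0876, and those of differently numbered libraries at -0.0313 to 0.0674. The values thus showed no likeness by replicate number. They cannot decide whether the numbers pair the libraries, as a pairing need not show in such correlations. With the replicate number as a block 194 rows were higher and 145 lower, 2 member rows passed, and increases numbered 1 in lipolysis, 5 among PPAR targets, 1 among surface proteins, 0 in synthesis and 0 among factors, where 0 fell.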
